A study of Mus musculus with 6 samples.

Results

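The genes described here are 8 of the 28208 genes that all 6 kidney libraries list: the costimulatory ligands *Cd80*, *Cd86* and *Icosl*, the receptor and ligand pair *Cd40* and *Cd40lg*, the T cell receptor partner *Cd28*, and the PD-1 ligands *Cd274* (encoding PD-L1) and *Pdcd1lg2* (encoding PD-L2). They were chosen by name, and all 8 had unique molecular identifiers (UMIs) in every transplanted kidney. Single-cell RNA-seq libraries came from 6 mouse kidneys. The 2 rejecting kidneys were BALB/c grafts (6-7 weeks) placed in wild-type B6 recipients whose own kidneys had been removed and who received no other treatment. The 2 tolerized kidneys were the same kind of graft in B6 recipients that were also infused intravenously, once before and once after transplantation, with BALB/c splenocytes fixed with ethylenecarbodiimide (ECDI-SP). Both kinds of graft were retrieved on day 15. The 2 naive kidneys were untransplanted C57BL/6 kidneys (10-12 weeks), so they differ from the grafts in strain and age as well as in transplantation, and their values are given without a test. Grafts hold donor and recipient cells, which were not told apart.

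A T cell that meets its antigen also needs a second signal, which CD28 delivers when it binds CD80 or CD86 on an antigen-presenting cell. CD40 ligand on activated CD4 T cells engages CD40 on dendritic cells (DCs), macrophages and B cells and raises their CD80 and CD86, while ICOS ligand engages ICOS, a relative of CD28. PD-L1 and PD-L2 bind PD-1 on T cells and restrain them, and interferon-gamma is a known inducer of PD-L1 on leukocytes, endothelium and epithelium.

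*Cd274* and *Pdcd1lg2* are neighbours on the same strand of chromosome 19 (mm10), at 29367455 to 29388095 and at 29410919 to 29471161. Because these neighbours differed in the cells that held their transcripts (below), the bases around their start sites are shown, from 250 bases before to 50 after, as RefSeq gives them on build GRCm38.p6 (plus strand, chr19:29367188-29367487 and chr19:29410669-29410968).
Cd274: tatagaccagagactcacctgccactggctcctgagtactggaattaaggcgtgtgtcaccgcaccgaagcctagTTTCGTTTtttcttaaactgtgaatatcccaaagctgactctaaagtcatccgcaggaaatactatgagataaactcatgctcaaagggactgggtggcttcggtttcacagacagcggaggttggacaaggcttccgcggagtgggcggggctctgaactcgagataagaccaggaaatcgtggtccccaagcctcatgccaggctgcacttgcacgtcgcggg
Pdcd1lg2: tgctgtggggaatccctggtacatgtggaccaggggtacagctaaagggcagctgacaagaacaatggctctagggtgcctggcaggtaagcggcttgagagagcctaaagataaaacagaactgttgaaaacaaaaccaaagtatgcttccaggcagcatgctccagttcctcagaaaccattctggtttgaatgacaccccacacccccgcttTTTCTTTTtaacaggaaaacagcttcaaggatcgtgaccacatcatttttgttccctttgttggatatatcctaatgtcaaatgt
The capitals mark the letters AANNGAAA, the element bound by interferon regulatory factors, here read on the opposite strand and lying at -175 in *Cd274* and at -35 in *Pdcd1lg2*. Both windows hold 1 such match, as do 23.9% of the 32851 promoter windows in the same table. Neither window holds an interferon-stimulated response element (ISRE; 3.44% of windows) or the letters TTCNNNGAA of a GAS element (8.3% of windows) on either strand. The table also holds windows of *Cd80* and *Icosl*.

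After filtering, 45667 cells remained, 5608 to 10483 per kidney, and they were placed in classes named from marker genes that included none of the 8 genes. All 12 DC markers were raised in the conventional DC-like cluster, all 10 macrophage markers in both macrophage-like clusters, 9 of 12 monocyte markers in the monocyte-like cluster (led by *Adgre4*, *Ear2* and *Treml4*), and 9 of 12 monocyte and 8 of 10 macrophage markers in the macrophage/monocyte-like cluster (led by *Chil3*, *Lyz1* and *F13a1*). These myeloid clusters also shared markers. Of 12 DC markers, 3 and 6 were raised in the macrophage-like clusters and 5 in the macrophage/monocyte-like cluster. The conventional DC-like cluster raised 4 of 12 monocyte markers. Tolerized libraries were the deeper ones, with medians of 6136 and 7292 UMIs per cell against 2535 and 3566 in rejecting kidneys. One T cell-like cluster with a median of 924 UMIs per cell and 19.4% mitochondrial UMIs held 62.2% of the T cell-like cells of rejecting kidney 1 but 3.49% to 9.36% of those of the other transplanted kidneys. The log2 fold changes of *Cd40lg* and *Cd86* in T cells are therefore also given without it. The T cell levels, the other log2 fold changes of the main comparison and the split by *Cd4* and *Cd8* include it. Levels are given as raw CPM, the UMIs of a gene per 1000000 UMIs summed over the cells of a class in a kidney.

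Summed over all cells, each of the 8 genes was higher in every transplanted kidney than in both naive kidneys. The *Cd86* level was 91.5 and 136 CPM in rejecting, 64.2 and 21.0 CPM in tolerized, and 1.49 and 4.69 CPM in naive kidneys. The *Cd274* level was 43.5 and 59.4 CPM in rejecting, 27.8 and 21.9 CPM in tolerized, and 0.463 and 0.702 CPM in naive kidneys. *Cd40lg* alone did not separate the rejecting from the tolerized kidneys at this level, with 1.43 and 2.74 CPM against 2.49 and 2.77 CPM. In such whole-kidney sums more cells of a type and more RNA per cell cannot be told apart: there were 1194 and 1192 macrophage-like cells in the rejecting, 955 and 295 in the tolerized, and 1 and 3 in the naive libraries. Naive kidneys also held 34 and 25 macrophage/monocyte-like cells, and 35 and 96 cells of an unnamed cluster in which 9 of 10 macrophage markers were raised and *Cd86* was at 232 and 237 CPM.

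The genes divided by where their UMIs lay. Over the 4 transplanted kidneys, macrophage-like cells gave 53.6% of the 16804 *Cd86* UMIs, 39.1% of the 6885 *Cd40* UMIs, 41.2% of the 2894 *Pdcd1lg2* UMIs and 30.9% of the 8455 *Cd274* UMIs. T cell-like cells gave 87.3% of the 9250 *Cd28* UMIs and 92.9% of the 595 *Cd40lg* UMIs. *Cd80* and *Icosl* were sparse, with 1366 and 1318 UMIs in all. For *Cd274*, proximal tubule-like cells gave 16.4% of the pooled UMIs, but the share differed between kidneys, from 13.7% and 6.31% in the rejecting pair to 23.0% and 25.6% in the tolerized pair. Macrophage-like cells gave 37.0% and 37.1%, then 31.4% and 13.9%, so in tolerized kidney 2 the tubular share was the larger.

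**Figure D1:**
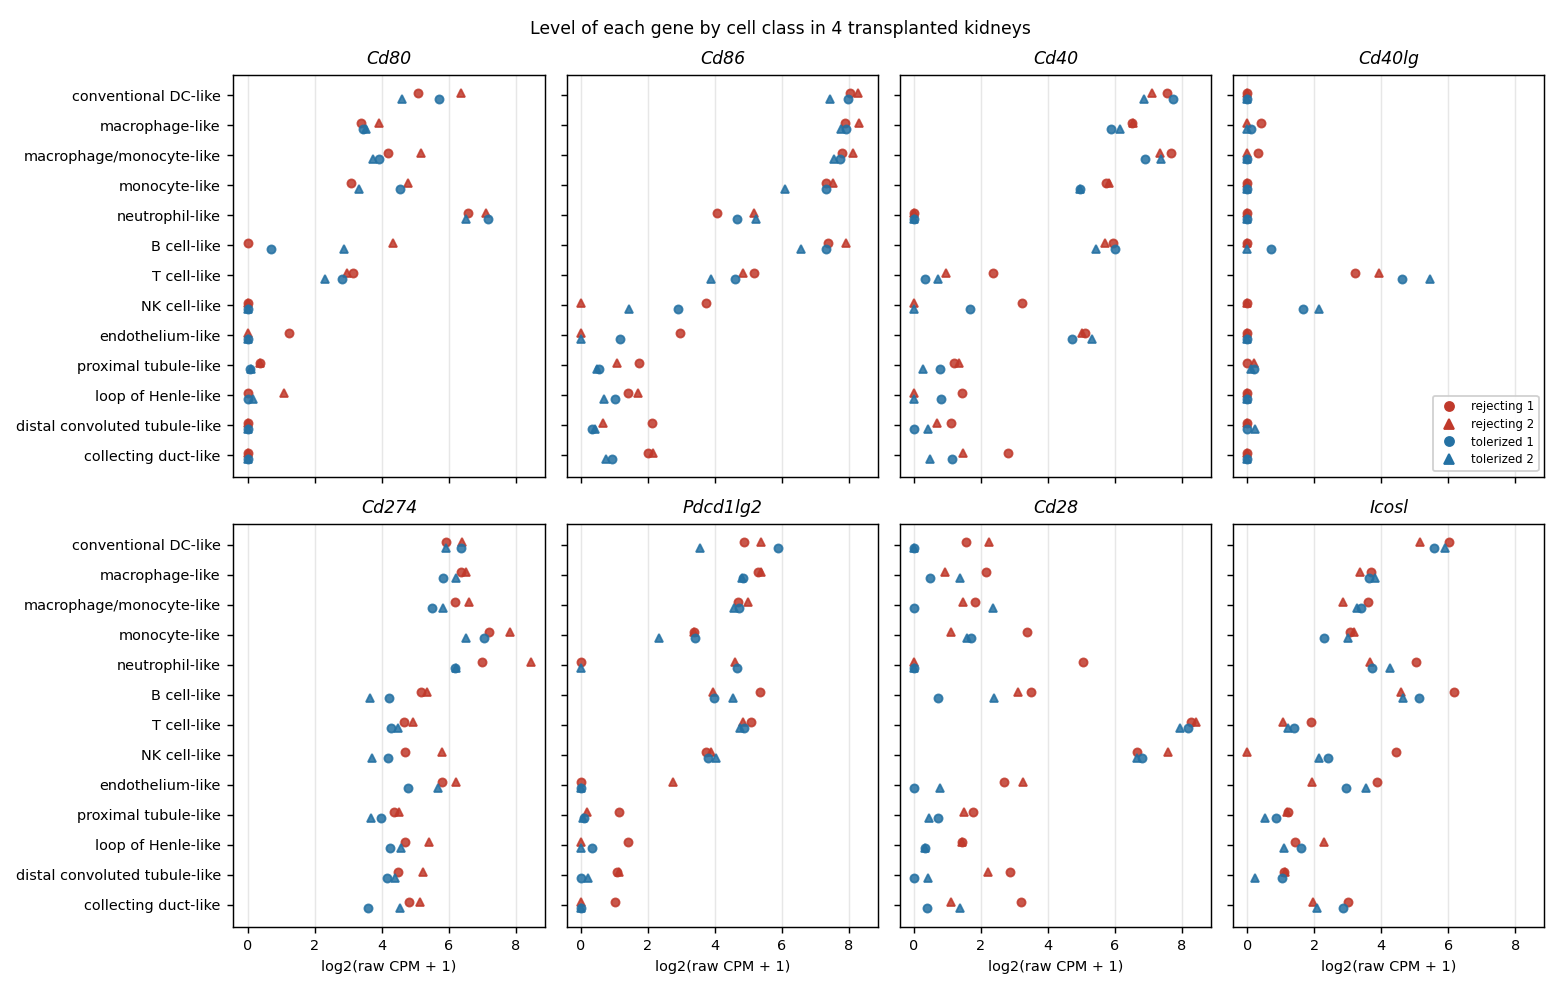
Raw CPM of each gene, as log2(CPM + 1), in 13 cell classes (rows) of the 2 rejecting (red) and 2 tolerized (blue) kidneys, 1 point per kidney (circle, replicate 1; triangle, replicate 2). *Cd274* was above 10 CPM in all 13 classes shown, whereas *Cd28* and *Cd40lg* were high in T cell-like cells.

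*Cd86*, which encodes a ligand of CD28, was highest in macrophage-like cells (251 ± 42.1 CPM, SD over the 4 transplanted kidneys) and conventional DC-like cells (248 ± 57.3), followed by macrophage/monocyte-like cells (225 ± 38.1). Ranges of these neighbours overlapped. B cell-like cells followed at 94.8 to 241 CPM and monocyte-like cells at 67.2 to 185 CPM. T cell-like cells held 13.9 to 35.2 CPM, and proximal tubule-like cells 0.389 to 2.33 CPM. When each cell was thinned to 1000 UMIs, 206 of 1100 and 290 of 1160 macrophage-like cells of rejecting kidneys had a *Cd86* UMI, as did 182 of 902 and 46 of 276 of tolerized kidneys, against 0% to 0.284% of proximal tubule-like cells. Thinning left out 19 to 94 macrophage-like cells per kidney, and before it 63.7% to 76.8% had a *Cd86* UMI. Median depths were 8246 to 14374 UMIs in macrophage-like and 4375.5 to 11370 UMIs in proximal tubule-like cells.

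*Cd80*, the second CD28 ligand, followed another order. Its level was highest in neutrophil-like cells, at 95.1 and 139 CPM in rejecting and 145 and 91.4 CPM in tolerized kidneys, although this class held only 35 to 43 cells per kidney and 6 to 12 *Cd80* UMIs in each. By the mean over kidneys conventional DC-like cells came next, at 33.2 and 82.1 CPM in rejecting and 51.9 and 23.4 CPM in tolerized kidneys, although in tolerized kidney 2 cycling T cell-like cells held 24.7 CPM (10 UMIs in 29 cells). Macrophage-like cells held 9.46 to 14.3 CPM, below the neutrophil-like and DC-like cells of each kidney. CPM values are not set per transcript length, so levels are compared between classes for 1 gene and not between genes.

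*Icosl* was highest in conventional DC-like cells (64.5 and 34.9 CPM in rejecting, 47.0 and 58.3 CPM in tolerized kidneys) and B cell-like cells (70.8 and 22.9 CPM, then 33.7 and 24.2 CPM). Their ranges overlapped. *Icosl* was present in naive parenchyma, with 8.26 and 10.4 CPM in endothelium-like cells and 6.82 and 9.23 CPM in collecting duct-like cells of the naive kidneys. The same classes of the transplanted kidneys held 2.83 to 13.5 CPM and 2.89 to 7.04 CPM.

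*Cd40*, the receptor of CD40 ligand, was at similar levels in conventional DC-like cells (185 and 137 CPM in rejecting, 212 and 116 CPM in tolerized kidneys) and macrophage/monocyte-like cells (202, 160, 117 and 165 CPM in the same order). Macrophage-like cells held 57.6 to 91.6 CPM and B cell-like cells 42.1 to 62.9 CPM. Endothelium-like cells held 25.3 to 38.4 CPM in transplanted kidneys, a range close to the 41.3 and 26.7 CPM of naive endothelium. *Cd40* was at 0 UMIs in the neutrophil-like cells of all 4 transplanted kidneys, which allows up to 27.4 to 47.6 CPM at the depth of this class.

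Conventional DC-like cells were clustered again without the 8 genes or their pathway lists. A mature DC-like subset (50 and 53 cells in rejecting, 52 and 36 cells in tolerized kidneys), marked by *Ccr7* and *Fscn1*, genes of DCs that migrate to lymph nodes, held the most *Cd40*, at 363 and 339 CPM in rejecting and 417 and 313 CPM in tolerized kidneys. No other DC subset exceeded 172 CPM in any transplanted kidney. These other subsets include a pool of all DC-like clusters that stayed unnamed. The pool mixed unlike clusters, among them a cluster led by cycling genes and a cluster with proximal tubule markers. Levels were not read for each unnamed cluster, so a cluster within the pool could be higher than the pool. *Cd274* was also highest there, at 118, 184, 137 and 178 CPM in the same order, against at most 80.1 CPM in the other subsets, as was *Icosl*, at 60.4 to 155 CPM against at most 56.9 CPM. For *Cd80* (43.4 to 148 CPM), *Pdcd1lg2* (40.7 to 107 CPM) and *Cd86* (169 to 496 CPM) the range of the mature subset overlapped that of other subsets. The subset rests on 36 to 53 cells per kidney, and it made up 50 of 195, 53 of 223, 52 of 127 and 36 of 126 DC-like cells.

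**Figure D2:**
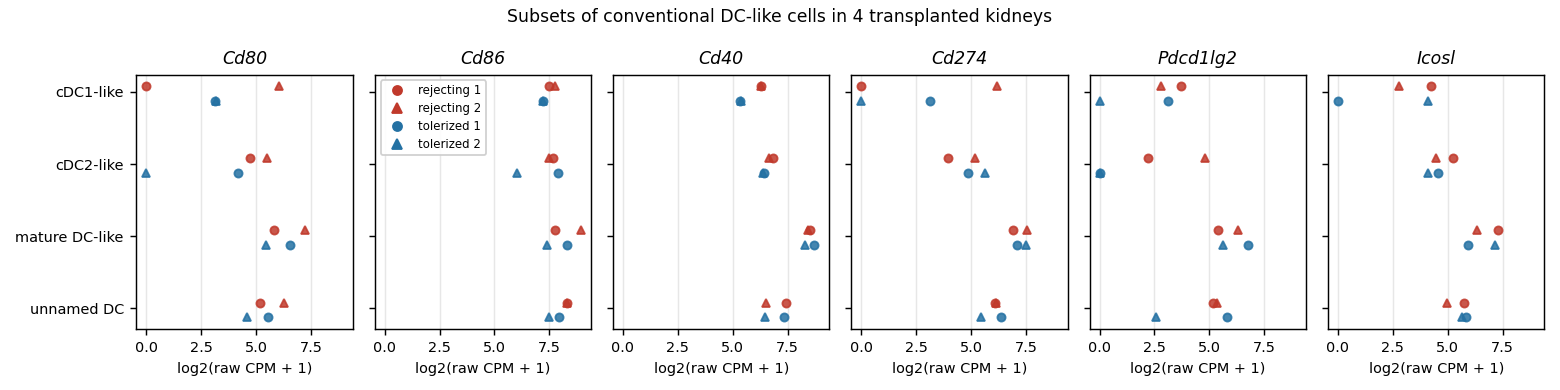
Raw CPM, as log2(CPM + 1), of 6 genes in subsets of conventional DC-like cells (rows) in 2 rejecting and 2 tolerized kidneys, 1 point per kidney. *Cd40* was at 313 to 417 CPM in the mature DC-like cells of the 4 kidneys, and the cDC1-like and cDC2-like subsets hold 5 to 48 cells per kidney.

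*Cd274* was widespread. By the mean over the 4 transplanted kidneys, neutrophil-like (155 CPM) and monocyte-like cells (149 CPM) held the most, and their ranges overlapped. Neutrophil-like cells held 127 and 348 CPM in rejecting and 72.3 and 73.1 CPM in tolerized kidneys. Monocyte-like cells held 146 and 229 CPM, then 132 and 90.2 CPM. Conventional DC-like cells held 59.0 to 83.9 CPM, and in tolerized kidney 1 they were above neutrophil-like cells. In tolerized kidney 2 macrophage-like cells (74.2 CPM) were slightly above neutrophil-like cells. Macrophage-like cells held 81.4 and 91.2 CPM in rejecting and 56.5 and 74.2 CPM in tolerized kidneys. Macrophage/monocyte-like cells, the class led by *Chil3*, *Lyz1* and *F13a1*, held 44.6 to 97.4 CPM. The level in neutrophils rests on 6 to 30 UMIs per kidney, and the level in monocytes on 90 to 236.

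In the parenchyma *Cd274* was far above the naive level in every endothelial and tubular class. Endothelium-like cells held 55.2 and 73.7 CPM in rejecting and 26.5 and 50.6 CPM in tolerized kidneys, against 4.13 and 3.48 CPM in naive kidneys. Proximal tubule-like cells held 19.8 and 22.0 CPM in rejecting and 14.8 and 11.9 CPM in tolerized kidneys, against 0.191 and 0.197 CPM in naive kidneys. The pooled naive value of 0.193 CPM came from 7 UMIs in 8633 cells, and its exact Poisson 95% interval, which covers counting error only, ran from 0.0778 to 0.399 CPM. Transplanted kidneys held 18.1 to 41.8 CPM in loop of Henle-like cells, 16.8 to 36.4 CPM in the distal convoluted tubule and 11.0 to 34.6 CPM in the collecting duct, and none of these classes exceeded 2.67 CPM in a naive kidney. This comparison was not tested, because naive kidneys also differed in strain and age and were counted against another gene list.

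The levels were also set against those of macrophage-like cells of the same kidney. In proximal tubule-like cells *Cd274* stood at 16.0% to 26.3% of its macrophage-like level, whereas *Cd86* stood at 0.18% to 0.986%, *Cd40* at 0.276% to 1.7% and *Pdcd1lg2* at 0.206% to 3.17%. In endothelium-like cells *Cd274* stood at 47.0% to 80.8% and *Cd40* at 34.0% to 54.6% of the macrophage-like level, against at most 2.84% for *Cd86*. *Cd80* and *Pdcd1lg2* reached at most 14.2% and 13.8% there, but from only 1 and 2 UMIs over the 4 transplanted kidneys. The sparse *Icosl* stood at 30.6% to 113% in endothelium-like, 24.6% to 59.0% in collecting duct-like and 3.38% to 13.7% in proximal tubule-like cells. Its endothelial values rest on 1 to 15 UMIs per kidney. The part of free leukocyte RNA in these levels was not tested.

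**Figure D3:**
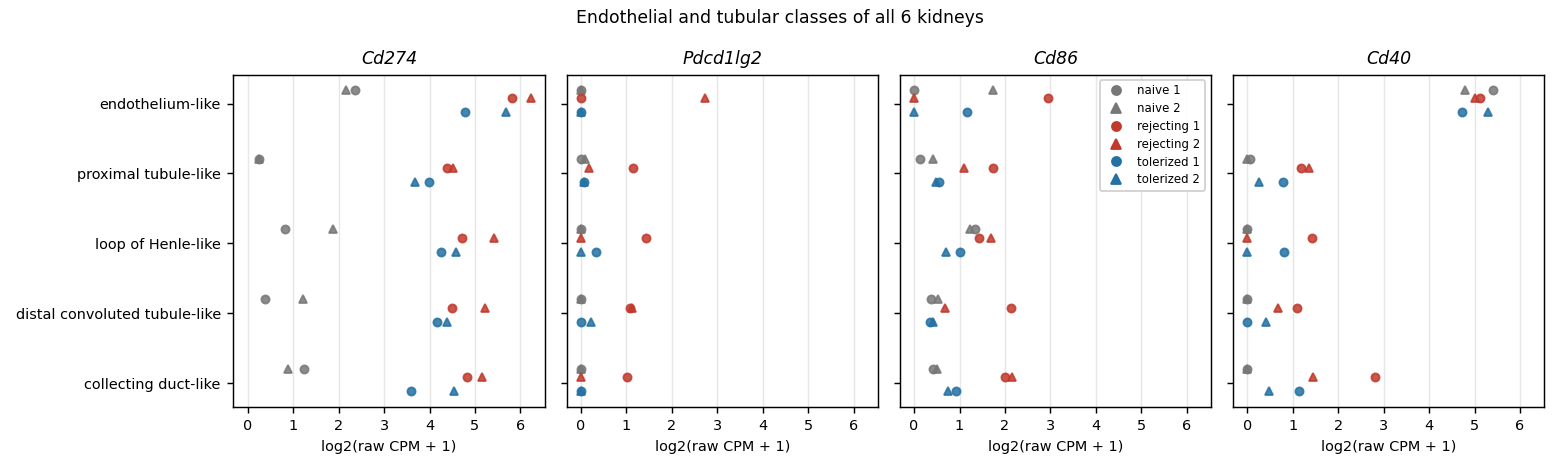
Raw CPM, as log2(CPM + 1), of 4 genes in endothelial and tubular classes (rows) of the 2 naive (grey), 2 rejecting (red) and 2 tolerized (blue) kidneys, 1 point per kidney. *Cd274* of every transplanted kidney lies above both naive kidneys in each class, while *Cd40* of endothelium does not separate them.

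*Pdcd1lg2*, in contrast to its neighbour, lay almost wholly in leukocytes. It was at 37.9 and 41.0 CPM in macrophage-like cells of rejecting and 27.4 and 26.9 CPM in those of tolerized kidneys, and at 28.0, 40.4, 57.5 and 10.7 CPM in conventional DC-like cells. T cell-like cells held nearly as much, at 32.7 and 27.5 CPM in rejecting and 28.4 and 25.8 CPM in tolerized kidneys, which is 67.2% to 104% of the macrophage-like level. The monocyte-like cells that were rich in *Cd274* held 4.01 to 9.52 CPM of *Pdcd1lg2*. In T cell-like cells *Cd40* stood at 0.431% to 4.58% and *Cd86* at 6.42% to 14.9% of the macrophage-like level. *Icosl* stood at 9.93% to 23.2%, *Cd274* at 29.0% to 32.6% and *Cd80* at 37.0% to 83.0%. The range of *Cd80* thus overlapped that of *Pdcd1lg2*. The part of macrophage RNA in the *Pdcd1lg2* level of T cells was not tested.

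*Cd28* was at 306 and 342 CPM in T cell-like cells of rejecting and 289 and 243 CPM in those of tolerized kidneys. Cycling T cell-like cells (161 to 268 CPM) and NK cell-like cells (99.4 to 191 CPM) followed. The few T cell-like cells of the naive kidneys (31 and 40) held 553 and 456 CPM. *Cd40lg* was at 8.29 and 14.4 CPM in the T cell-like cells of rejecting and 23.7 and 43.2 CPM in those of tolerized kidneys. The T cell-like cells of the naive kidneys held 142 and 86.9 CPM, from 17 UMIs. Both rejecting kidneys were thus below both tolerized kidneys for *Cd40lg*.

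T cell-like cells were split by whether a cell had a UMI of *Cd4*, or of *Cd8a* or *Cd8b1*. *Cd40lg* was at 28.6 and 76.9 CPM in the *Cd4*-only cells of rejecting and 123 and 113 CPM in those of tolerized kidneys, against 1.05 to 6.40 CPM in cells with *Cd8* only. Cells with neither held 23.3 and 37.0 CPM in rejecting and 19.2 and 70.2 CPM in tolerized kidneys. By UMIs, the *Cd4*-only cells gave 22 of 57 and 53 of 106 in rejecting and 142 of 191 and 102 of 199 in tolerized kidneys, and in rejecting kidney 1 the cells with neither gave more (28). Cells with *Cd4* only made up 8.68% and 10.0% of the T cell-like cells of the rejecting pair and 14.6% and 18.5% of those of the tolerized pair, so both their share and their *Cd40lg* level were higher in each tolerized kidney. The split depends on depth, which was greater in tolerized libraries, since a shallow cell more often lacks a *Cd4* UMI. After thinning to 1000 UMIs, 3.46% and 8.37% of the *Cd4*-only cells of rejecting kidneys had a *Cd40lg* UMI, against 10.5% and 9.26% in tolerized kidneys. *Cd28* was higher in *Cd4*-only than in *Cd8*-only cells of each kidney, at 390 against 283 and 631 against 271 CPM in rejecting, and at 457 against 236 and 320 against 183 CPM in tolerized kidneys. *Pdcd1lg2* followed the same order, at 35.5 to 56.6 CPM in *Cd4*-only and 18.4 to 27.1 CPM in *Cd8*-only cells.

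**Figure D4:**
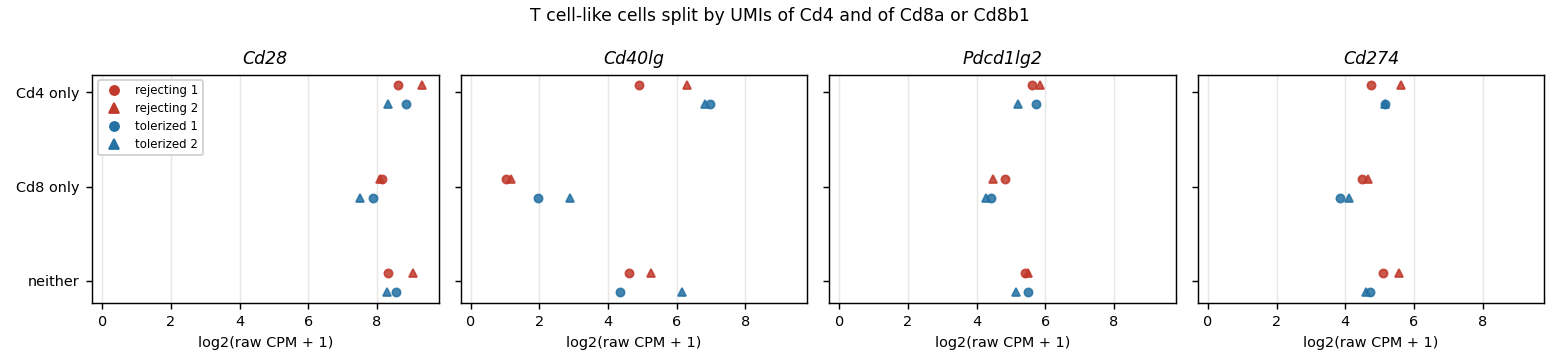
Raw CPM, as log2(CPM + 1), of 4 genes in T cell-like cells that held UMIs of *Cd4* only, of *Cd8a* or *Cd8b1* only, or of neither (rows), 1 point per kidney. *Cd40lg* of *Cd4*-only cells was 28.6 and 76.9 CPM in rejecting (red) and 123 and 113 CPM in tolerized (blue) kidneys.

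Rejecting and tolerized kidneys were then compared within 8 classes on summed UMI counts with edgeR's quasi-likelihood test, whose p values were adjusted over all genes tested in a class by the Benjamini-Hochberg procedure. With 2 kidneys per group, no gene of any kind passed an FDR of 0.05 (0% of 7194 to 12789 genes in each class), so none of the 44 tests of the 8 genes did either. At an unadjusted p under 0.05 there were 360 to 1216 genes per class, and DESeq2 on the same sums called 7 to 185 genes per class. The 44 log2 fold changes, given as rejecting over tolerized, were positive in 34 tests and had a median of 0.36. They came from the same 4 kidneys and are not independent, and the share of all genes with a positive value is not given. Their median by class ran from -0.09 in conventional DC-like to 1.45 in proximal tubule-like cells, where the count filter bears on low genes (below). TMM scaling holds the median over all genes tested near 0 (-0.011 to 0.004 in each class), so that median is no separate yardstick. Raw CPM is not so centred: its median log2 ratio over all genes was 0.02 to 0.17 in favour of rejecting kidneys.

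**Figure D5:**
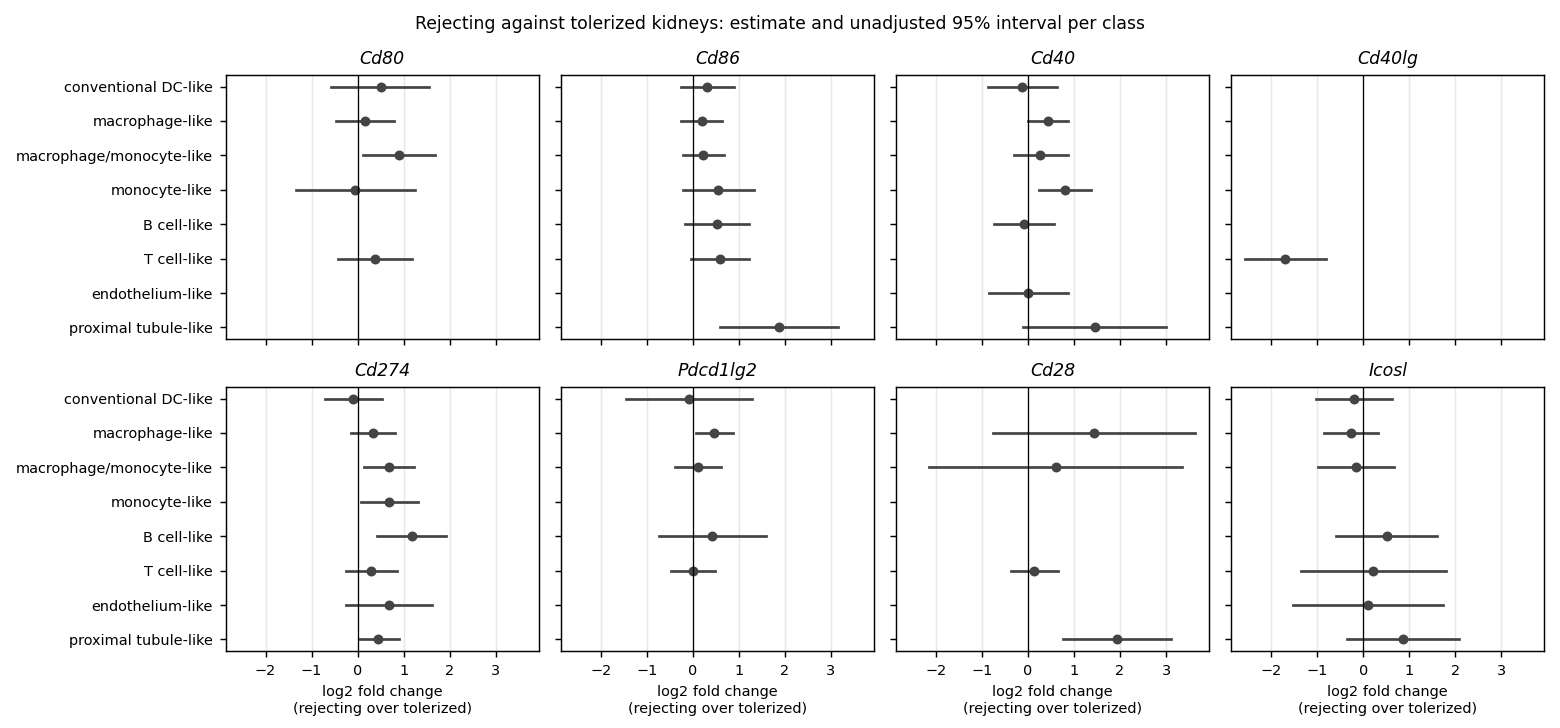
Log2 fold change (rejecting over tolerized, edgeR) of each gene in the classes where it was tested (rows), with its unadjusted 95% interval. For *Cd274* 7 of 8 estimates are above 0, *Cd40lg* lies below 0 in T cell-like cells, and none passes an FDR of 0.05.

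*Cd274* was above 0 in 7 of its 8 classes, from 0.30 ± 0.241 (SE) in T cell-like cells to 1.17 ± 0.333 in B cell-like cells, with -0.10 ± 0.269 in conventional DC-like cells. In B cell-like cells it was at 35.4 and 40.1 CPM in rejecting and 17.8 and 11.6 CPM in tolerized kidneys (edgeR adjusted p = 0.771). *Cd274* and *Cd86* were the 2 of 5 genes tested in B cells of which both rejecting kidneys exceeded both tolerized kidneys, as did 26.8% of all genes tested in that class. The log2 fold change was 0.69 ± 0.273 in monocyte-like cells, 0.68 ± 0.24 in macrophage/monocyte-like cells, 0.69 ± 0.40 in endothelium-like cells and 0.45 ± 0.184 in proximal tubule-like cells. The interval for conventional DC-like cells ran from -0.72 to 0.52 on the log2 scale.

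In macrophage-like cells 3 of 7 genes tested were higher in both rejecting kidneys than in both tolerized kidneys, as were 24.3% of all genes tested. These were *Cd40* (89.0 and 91.6 CPM in rejecting, 57.6 and 70.4 CPM in tolerized kidneys, log2 fold change 0.43 ± 0.188), *Pdcd1lg2* (0.47 ± 0.174, edgeR adjusted p = 0.812) and *Cd274* (0.33 ± 0.206). *Cd86* was at 237 and 312 CPM in rejecting and 238 and 216 CPM in tolerized kidneys, and its interval ran from -0.26 to 0.64. In macrophage/monocyte-like cells 3 of 7 genes were higher in both rejecting kidneys (23.2% of all genes), with *Cd80* at 17.2 and 35.5 CPM against 14.2 and 12.4 CPM. In monocyte-like cells 3 of 4 were (19.5% of all genes), with *Cd40* at 52.1 and 55.7 CPM against 30.2 and 30.1 CPM (log2 fold change 0.80 ± 0.251, edgeR adjusted p = 0.702).

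In conventional DC-like cells *Cd86* alone was higher in both rejecting kidneys (262 and 309 CPM against 252 and 171 CPM), 1 of 6 genes tested against 24.4% of all genes, and 4 of 6 log2 fold changes were below 0. Their intervals were wide, from -0.88 to 0.62 for *Cd40* and from -1.45 to 1.28 for *Pdcd1lg2*, so a difference in either direction was not detectable with these kidneys. The mature DC-like subset, highest of the subsets compared in *Cd40*, *Cd274* and *Icosl*, made up 50 of 195 and 53 of 223 DC-like cells in rejecting kidneys. In tolerized kidneys it made up 52 of 127 and 36 of 126. Sums over the class do not separate the share of a subset from its level.

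In T cell-like cells *Cd40lg* had the log2 fold change farthest from 0 among the 8 genes in the immune classes, at -1.69 ± 0.383 (edgeR adjusted p = 0.404). DESeq2 called it (adjusted p = 0.0279), while the other alternatives, all with edgeR, gave adjusted p values from 0.0748 to 1. It was the 1 of 7 genes tested that was lower in both rejecting kidneys, as were 10.9% of all genes tested in T cells. Without the cluster of low UMI count the log2 fold change was -1.68. Another 4 genes, among them *Cd28* (0.14 ± 0.222) and *Cd86* (0.60 ± 0.272), were higher in both rejecting kidneys, against 31.5% of all genes. Summed macrophage markers in T cell-like cells stood at 1074 and 218 CPM in rejecting and 155 and 81.2 CPM in tolerized kidneys, with all 10 markers detected in each, and without the low-UMI cluster the *Cd86* log2 fold change was 0.38; the part of macrophage RNA in the *Cd86* level of T cells was not tested.

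Endothelium-like cells were few (48 to 221 per transplanted kidney). Among 3 genes tested there, *Cd274* was higher in both rejecting kidneys, against 17.5% of all genes, and *Cd40* was not (log2 fold change 0.01 ± 0.363). In proximal tubule-like cells all 5 genes tested were higher in both rejecting kidneys, as were 36.8% of all genes tested. The count filter keeps a gene that is high enough in 1 group alone. *Cd28*, *Cd86* and *Cd40* (0.712 and 0.194 CPM in tolerized kidneys) were low in tolerized kidneys and may have passed through the rejecting kidneys. The filter can thus set part of this count of 5, which is no separate result. *Cd28* was at 2.40 and 1.83 CPM in rejecting and 0.626 and 0.361 CPM in tolerized kidneys (1.93 ± 0.498, edgeR adjusted p = 0.321, or 0.0497 with no filter on low counts), and *Cd86* at 2.33 and 1.13 against 0.456 and 0.389 CPM (1.88 ± 0.545). Summed T cell markers in the same cells were 169 and 56.5 CPM in rejecting and 26.0 and 22.1 CPM in tolerized kidneys, with all 12 detected in each, and summed macrophage markers 403 and 151 against 138 and 64.4 CPM. Their part in the *Cd28* and *Cd86* values of tubular cells was not tested.

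Other genes of these pathways were read from 5 lists, and none passed the FDR in any class. Of the partners of the CD28 and B7 families, 7 of 11 were tested in macrophage-like and 6 of 11 in T cell-like cells. *Vsir*, which encodes the checkpoint ligand VISTA, had the highest level of the list in macrophage-like cells (247 and 179 CPM in rejecting, 203 and 166 CPM in tolerized kidneys). *Pdcd1*, which encodes PD-1, had the highest in T cell-like cells, at 524 and 718 CPM in rejecting and 446 and 255 CPM in tolerized kidneys (log2 fold change 0.69 ± 0.312). Of the TNF family list (6 and 11 of 13 tested), *Tnfsf9*, encoding the 4-1BB ligand, led in macrophages at 7.68 to 28.9 CPM, and *Cd27* led in T cells at 372 and 495 CPM in rejecting and 292 and 254 CPM in tolerized kidneys.

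Of 20 genes of CD40 signalling and DC maturation, 18 were tested in macrophage-like cells, 15 of them with a positive log2 fold change (list median 0.24), and all 19 tested in macrophage/monocyte-like cells had one (median 0.41). In conventional DC-like cells 9 of 20 did (median -0.04). Other lists gave other counts. CD28 and T cell receptor signalling genes were positive in 11 of 12 tests in macrophage/monocyte-like and 10 of 12 in conventional DC-like cells. TNF family genes were positive in 3 of 5 and 0 of 3 tests in the same order. The share of all genes with a positive value is not given, so counts of positive values describe the lists only. *Nfkbia*, an inhibitor and target of NF-kappaB, had the highest level of this list in both macrophage-like (206 to 292 CPM) and T cell-like cells (280 to 410 CPM). A further list held 14 genes of interferon-gamma signalling and its targets. Of these, 13 of 14 tested had a positive log2 fold change in macrophage-like and in proximal tubule-like cells (medians 0.22 and 0.58). Most tested genes of the other lists also had a positive value in proximal tubule-like cells. Positive there were 15 of 16 CD28 and T cell receptor signalling genes (median 1.08) and 16 of 18 CD40 genes (0.68). So were 6 of 6 CD28 and B7 partners (1.96) and 4 of 6 TNF family genes (1.14). The count filter can keep a gene that is high enough in rejecting kidneys alone. It can thus set part of these counts and medians in proximal tubule-like cells. The part of leukocyte RNA in them was not tested. *Cxcl9*, an interferon-gamma target, stood at 4190 and 3180 CPM in macrophage-like cells of rejecting and 2550 and 3030 CPM in those of tolerized kidneys (0.32 ± 0.219), and *Ifngr1*, a chain of the interferon-gamma receptor, at 421, 590, 419 and 296 CPM in T cell-like cells. Of the CD28 and T cell receptor signalling genes all 17 were tested in T cells, 13 with a positive value (median 0.17). *Lck*, the kinase that starts the receptor signal, led there at 695, 472, 487 and 363 CPM, and the adaptor gene *Grb2* led in macrophages at 224 to 286 CPM.

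Across the 70 sums of 1 class in 1 transplanted kidney, the gene whose log2(CPM + 1) was most like *Cd86* was *Irf5* (Pearson r = 0.90), followed by *Ctss* and *Camk1d* (both 0.87). *Cd28* was most like *Thy1* (0.90), *Rgs16* and *Ctsw* (both 0.89). *Cd40lg* was most like the chemokine receptor genes *Ccr4* (0.86) and *Ccr8* (0.84), then *Camk4* (0.83). *Cd40* was most like *Nlrc4* (0.84), *H2-Eb1* (0.83) and *Ifi211* (0.82), and *Cd80* like *Slfn1*, *Mcemp1* and *Cass4* (each 0.86). *Pdcd1lg2* was most like *Limd2* (0.84), *Cd84* (0.82) and *Rassf2* (0.80). The nearest genes to *Cd274* (*Synj1*, 0.78; *Sat1* and *Snap23*, both 0.76) and to *Icosl* (*Wdfy4* and *Cnr2*, both 0.75; *March1*, 0.72) were less alike. Classes of 1 kidney share a library, so these values describe the profiles only.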

How the data were processed

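Per the labels, the authors dissociated whole kidneys, made 10x Genomics libraries and used Cell Ranger and mm10. The deposited files hold raw UMI counts, 34874702 to 96803926 per kidney. Naive matrices list 28692 genes and the others 31053, and the 28208 shared genes were used. Barcodes were retained (49797) if they had 500 UMIs and 250 genes or more and mitochondrial UMIs made up no more than 50%. Scrublet's own threshold marked 0 to 276 barcodes per kidney, so those with the highest scores (0.8% per 1000 barcodes, 4130 in all) were removed. Cells were clustered with scanpy 1.11.5 (2500 variable genes without the 8 genes and their pathway lists, 40 components, 20 neighbours, Leiden resolution 1.5). Of 47 clusters 6 stayed unnamed. A name needed 3 markers, each in 10% of the cells and 2 times the average of all clusters. Libraries shared at most 111 barcodes.

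For each kidney and class of 10 cells or more, UMI counts were added up and tested with edgeR 4.0.16 (filterByExpr, TMM, quasi-likelihood test, Benjamini-Hochberg FDR of 0.05), with a code check on simulated counts. DESeq2 1.42.0, other cell and count filters, the replicate number as a block, resolution 0.8, doublets kept, and leaving out each transplanted kidney were alternatives. Intervals and floors (3 counts) cover counting error only. The 8 genes and the lists were chosen with earlier results of these data known. The 8 genes are named, with the gene of highest level per list in macrophage-like and T cell-like cells, and the 3 genes of highest Pearson r to each. The study describes 2 experiments, but the labels assign no kidney to one, so experiment could not be a term, and p values measure the spread between these kidneys. Gene positions are from GENCODE on mm10 and promoter windows from RefSeq.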

Additional observations from a re-analysis of the deposited data

How the results depend on the processing

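The 44 log2 fold changes were recomputed 559 times under other settings: 517 kept their direction and side of the threshold, 40 reversed in 19 results, and 2 came past the threshold (*Cd40lg* in T cell-like cells with DESeq2, *Cd28* in proximal tubule-like cells with no filter on low counts). No monocyte-like class formed at the lower resolution, so it has no value there, and adjusted p values that DESeq2 left missing were kept missing. The largest changes were in counts over all genes, which were 0 in each class as reported; the cause was not tested.

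Genes called by DESeq2 numbered 36 in conventional DC-like, 30 in macrophage-like, 32 in macrophage/monocyte-like, 17 in monocyte-like, 7 in B cell-like, 37 in T cell-like, 19 in endothelium-like and 185 in proximal tubule-like cells. With no filter on low counts edgeR called 195, 285, 230, 105, 97, 0, 151 and 560 genes in that order. With doublets kept it called 1 gene in monocyte-like, 1 in B cell-like and 3 in endothelium-like cells. Leaving out 1 kidney leaves a lone sample, assumed to vary like the other group, and gave 7 to 70, 0 to 78, 0 to 60, 1 to 40, 13 to 127, 0 to 113, 7 to 85 and 0 to 139 genes in the same order of classes; the 113 genes in T cells came without rejecting kidney 2, and the 139 in proximal tubule without tolerized kidney 1.

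Same-numbered kidneys deviated with correlations of -0.189 to 0.091 over the classes, and the labels tie the numbers to no shared animal or day. The study ran its kidneys in 2 experiments, but whether a replicate number marks an experiment is not given in the sources used here, so the numbers were not taken as pairs. With the replicate number as a block, edgeR called 1 gene in macrophage-like, 3 in monocyte-like, 1 in endothelium-like and 164 in proximal tubule-like cells, and *Pdcd1lg2* became 0.15 in DC-like and 0.00 in T cell-like cells. The crossed replicate block, chosen after seeing the data, called 14 genes in macrophage-like, 93 in monocyte-like and 9 in T cell-like cells, and put *Cd80* at 0.04 in monocyte-like cells. None of the 8 genes was called under either block.

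The other log2 fold changes that reversed were near 0 or imprecise. They were *Pdcd1lg2* in DC-like cells with doublets kept (0.05), *Cd28* in macrophage/monocyte-like cells with DESeq2 (-0.06), *Cd80* in monocyte-like cells with DESeq2 (0.03) and with at least 1000 UMIs (0.00), and *Pdcd1lg2* in T cell-like cells with no filter (0.01) and with at least 1000 UMIs (0.04). In endothelium-like cells *Icosl* became -0.01 with DESeq2, and *Cd40* -0.02 with no filter and -0.31 with doublets kept.

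Without 1 kidney each, values in DC-like cells ran from -0.21 (without rejecting 2) to 1.12 for *Cd80*, -0.47 to 0.32 (without tolerized 1) for *Cd40*, -0.29 to 0.11 (tolerized 1) for *Cd274*, -0.83 to 1.51 (tolerized 1) for *Pdcd1lg2* and -0.79 to 0.23 (rejecting 2) for *Icosl*. Without rejecting 2, *Cd80* (range -0.16 to 0.42) and *Cd86* (0.00 to 0.37) turned in macrophage-like cells, as did *Icosl* (-0.65 to 0.22) and *Pdcd1lg2* (0.00 to 0.24) in macrophage/monocyte-like cells, where *Cd40* (-0.02 to 0.61) and *Cd28* (-1.09 to 6.26) turned without tolerized 1. *Cd80* in monocyte-like cells (-1.14 to 0.75) turned without rejecting 1 or tolerized 1. In B cell-like cells *Pdcd1lg2* (-0.49 to 1.02) and *Icosl* (-0.53 to 1.13) turned without rejecting 1, and *Cd40* (-0.30 to 0.21) without rejecting 2 or tolerized 1. In T cell-like cells *Icosl* (-0.53 to 0.70) turned without rejecting 1 and *Pdcd1lg2* (-0.08 to 0.08) without rejecting 2 or tolerized 1. In endothelium-like cells *Cd40* (-0.30 to 0.38) and *Icosl* (-1.60 to 0.61) turned without rejecting 1 or tolerized 1. *Cd40lg* in T cells ran from -2.20 to -1.18 and *Cd274* in B cells from 0.97 to 1.51.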

Other observations

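An unnamed cluster in which 9 of 10 macrophage markers were raised came from naive kidneys but for 1 cell (35 and 96 naive cells after doublet removal) and entered no comparison. Its *Cd86* level was 232 and 237 CPM in naive kidneys 1 and 2. Its *Cd40* level was 12.2 and 10.4 CPM, its *Icosl* level 24.4 and 13.9 CPM, and its *Cd274* level 0 and 3.48 CPM. *Pdcd1lg2*, *Cd28* and *Cd40lg* had no UMI in these cells.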
